A study of Mus musculus with 12 samples.

Results

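Libraries labelled as cardiac progenitor cells sorted at day 4 of differentiation were compared with the undifferentiated mouse induced pluripotent stem cells (iPSCs) of the same study. The comparison took every array that the labels gave to these groups, 3 labelled sorted and 3 of iPSCs, which are 6 of the 12 arrays of the study, and covered 19938 genes. The iPSC group was day 0 and served as the study's control; its labels call the cells piPS without expanding the name. The sorted group was labelled as enriched cardiac progenitor cells (CPCs), double positive by flow cytometry for FLK1 and PDGFRα. The other 6 arrays held day 4 cells differentiated spontaneously and day 4 cells of an optimized cardiac differentiation, 3 arrays each, which entered the fit and are given beside the libraries labelled sorted where they help. The labels name no strain, clone, donor animal or transgene, and nothing in them says whether replicates were separate cultures. The spread behind each p-value is thus that of the deposited arrays alone and could be technical.

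An undifferentiated mouse pluripotent cell holds a naive gene network (Esrrb, Klf2, Klf4, Tfcp2l1, Zfp42 and others) that LIF and STAT3 signalling sustains, on top of a core of Pou5f1, Sox2 and Nanog. On leaving that state it passes through a formative, epiblast-like phase marked by Fgf5 and Otx2. Cells that then enter the primitive streak switch on Eomes and Mixl1, and those that become cardiogenic mesoderm pass through Mesp1. FLK1, the receptor for vascular endothelial growth factor encoded by Kdr, and PDGFRα, a receptor for platelet-derived growth factors encoded by Pdgfra, are together on the surface of such mesoderm before the heart transcription factors and the sarcomere genes come on.

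Values are log2 signals of the deposited array table. A difference is the mean of the libraries labelled sorted minus the mean of day 0, with the standard error (SE) of the limma fit, and n = 3 arrays a group throughout. That fit assumes for each gene the same spread in all 4 groups. The sorted group varied most, with a standard deviation (SD) over 1 for 230 genes, against 7 at day 0. Where the sorted libraries differ widely, the SE and p-value can therefore understate their spread. A gene is said to have risen or fallen where its adjusted p was under 0.05 and its log2 difference at least 1 in size. No background was measured, so a signal near or below the median gene (6.61 at day 0) is not shown to exceed background, and a fold change against it may be understated. In bulk RNA, fewer cells of a type and less RNA per cell cannot be told apart.

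Kdr and Pdgfra, whose proteins set the sorting gate, were high in only 1 of the 3 libraries labelled sorted. Kdr measured 10.23, 6.25 and 6.03 in the libraries labelled sorted 1, 2 and 3, against 5.50, 5.54 and 5.78 at day 0. Pdgfra measured 11.13, 8.47 and 8.29, against 8.75, 9.14 and 8.81 at day 0. Sorted 1 thus stood above day 0 in both genes, while sorted 2 and 3 were near day 0 in Kdr and below it in Pdgfra. Neither difference passed the test (adjusted p = 0.427 and 0.766). In unsorted day 4 cells, Kdr measured 9.83, 10.71 and 10.27 in spontaneous cells and 5.42, 10.81 and 9.01 in cardiac cultures, while Pdgfra ran from 9.71 to 10.35 and from 9.42 to 10.26. A split in Kdr was thus also seen among the cardiac cultures, where replicate 1 was at the day 0 level. Pdgfra was above day 0 in all 6 unsorted arrays. The arrays did not measure surface protein. Because the RNA of the gate genes goes against the label in sorted 2 and 3, the leading results are given for each library.

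The libraries labelled sorted also differed widely among themselves. Pairwise correlations across genes were 0.9797 between sorted 1 and 2, 0.9656 between sorted 1 and 3 and 0.9754 between sorted 2 and 3, against 0.973 to 0.9876 in cardiac cultures and 0.989 to 0.9923 at day 0; genes are not independent replicates. Between sorted 1 and 3, 899 genes differed by at least 1, against at most 131 genes between day 0 arrays. The counts were 496 between sorted 1 and 2 and 543 between sorted 2 and 3. Cardiac cultures also varied, with 784 genes between replicates 1 and 2, 254 between 1 and 3 and 160 between 2 and 3. The SD exceeded 1 for 230 genes in the sorted group, 115 in cardiac cultures, 14 in spontaneous cells and 7 at day 0. By correlation, sorted 1 was closest to a spontaneous array (0.9846), while sorted 2 and 3 were each closest to cardiac replicate 3 (0.9921 and 0.9812).

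**Figure D1:**
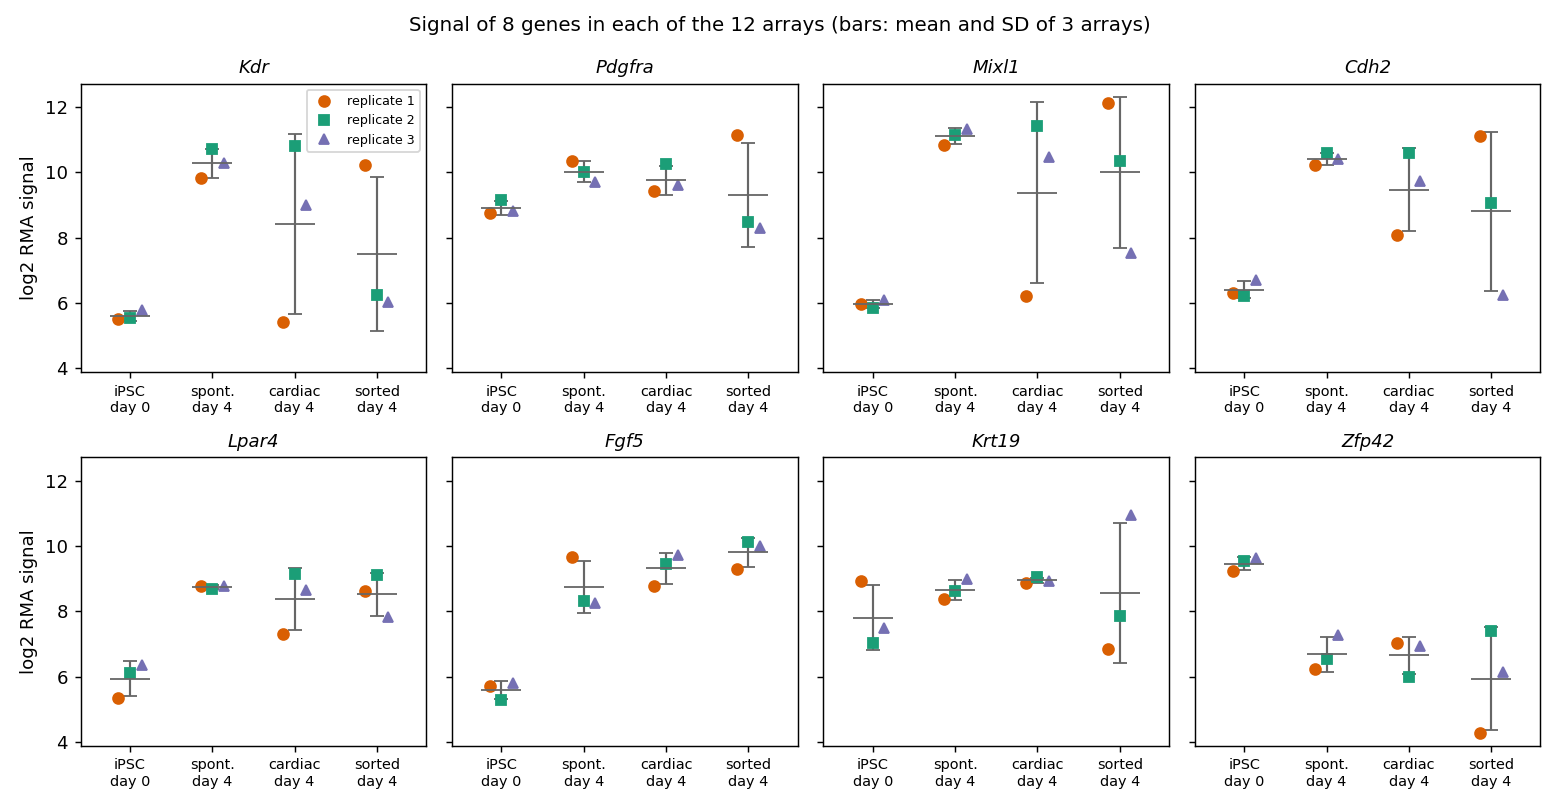
Log2 signal (vertical axis) of 8 genes in each of the 12 arrays, by group (horizontal axis); symbols mark the replicate number, and bars give the mean and SD of 3 arrays. Kdr, Pdgfra, Mixl1 and Cdh2 are highest among the sorted libraries in replicate 1 and Krt19 in replicate 3, while all sorted libraries lie above day 0 in Lpar4 and Fgf5 and below it in Zfp42.

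Against day 0, limma called 157 genes higher (0.787% of the genes tested) and 263 lower (1.32%) in the libraries labelled sorted, 2.11% in either direction. All 157 risen genes and 259 of the 263 fallen genes had sorted and day 0 arrays that did not overlap. Over all genes, 2036 (10.2%) had all 3 sorted arrays above day 0 and 2246 (11.3%) had them below, and the median difference was 0.03. A change of at least 4-fold was reached by 29 risen and 56 fallen genes. The changes were not confined to the sorted group. In mean signal all 157 risen and all 263 fallen genes differed from day 0 in the same direction in the unsorted cardiac cultures. That comparison shares the day 0 arrays. Of the risen genes, 83 kept their call whichever of the 6 arrays was left out, as did 139 of the fallen. The count of risen genes was 270 without sorted 3, and the count of fallen genes 338. With sorted 1 alone set against day 0 the counts were 277 higher and 547 lower, where its spread is assumed to be that of the other groups. Calls seen in all 6 arrays were kept by 126 risen and 187 fallen genes without sorted 1, and by 106 and 218 with sorted 1 alone.

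The largest rise was that of Fndc3c1, at 9.11, 9.11 and 9.83 in sorted 1, 2 and 3 against 4.67, 4.28 and 5.04 at day 0 (4.68 ± 0.51 SE, 25.7-fold, adjusted p = 0.00057). Fgf5, a growth factor of the postimplantation epiblast, measured 9.30, 10.11 and 10.01 against 5.71, 5.29 and 5.81 (4.20 ± 0.36 SE, 18.4-fold, adjusted p = 0.000168). For both genes the 3 sorted libraries lay within 1 log2 unit of each other and far above every day 0 array, so that the gate genes' split was not seen in them. Eomes, which encodes a T-box protein needed in the streak, measured 11.50, 10.34 and 8.60 against 6.97, 6.10 and 6.29 (3.70 ± 0.66 SE, adjusted p = 0.00658). Cyp26a1, an enzyme that degrades retinoic acid, measured 11.35, 9.76 and 8.43 against 6.18, 5.99 and 6.85 (3.51 ± 0.50 SE, adjusted p = 0.00203). These were highest in sorted 1 and lowest in sorted 3, yet sorted 3 still exceeded every day 0 array. Ppp4r4, a regulatory subunit of a protein phosphatase, had the opposite order, with 7.84, 8.76 and 9.73 against 5.30 to 5.70 (9.83-fold, adjusted p = 0.00613). The next largest rises were those of Alox15, a lipoxygenase (8.54-fold), Amot, a junction protein that binds YAP (7.34-fold), Rragd, a GTPase of nutrient signalling to mTOR (7.26-fold), Has2, a hyaluronan synthase (7.11-fold), and Peg3, a paternally expressed imprinted gene (6.47-fold). The Alox15 call was lost without iPSC replicate 1 or 2 (limma, highest adjusted p = 0.079). Unsorted day 4 cells shared the leading rises. Eomes had means of 10.74 in spontaneous cells and 9.98 in cardiac cultures, against 10.15 in the libraries labelled sorted. For Cyp26a1 they were 10.43 and 10.68 against 9.85. Fndc3c1 (8.83 and 8.33 against 9.35) and Fgf5 (8.75 and 9.32 against 9.81) had their highest group mean in the sorted libraries.

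Genes of the naive state led the falls. Nr0b1, an orphan nuclear receptor of that network, measured 5.34, 9.20 and 6.0 in sorted 1, 2 and 3 against 10.21, 11.17 and 11.09 at day 0 (-3.98 ± 0.78 SE, 15.7-fold lower, adjusted p = 0.0108). Zfp42, known as Rex1 and a classical marker of naive cells, measured 4.29, 7.41 and 6.14 against 9.23, 9.53 and 9.63 (-3.52 ± 0.57 SE, 11.4-fold lower, adjusted p = 0.00398). Sorted 1 was lowest and sorted 2 highest in both, and no sorted array reached day 0. Fbxo15, a target of OCT4, fell 9.79-fold and Esrrb, an orphan nuclear receptor that maintains self-renewal, 7.5-fold. Cdyl2, a chromodomain protein gene, fell evenly, to 7.0, 7.43 and 6.72 from 10.23, 10.01 and 9.83 (-2.98 ± 0.26 SE, adjusted p = 0.000168). Ptgs2, the inducible prostaglandin synthase, fell 7.05-fold, the adhesion molecule gene Jam2 6.77-fold, the Akt coactivator gene Tcl1 6.48-fold, the membrane protein gene Emp1 6.36-fold and Hsf2bp, a gene of meiotic recombination, 6.34-fold.

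**Figure D2:**
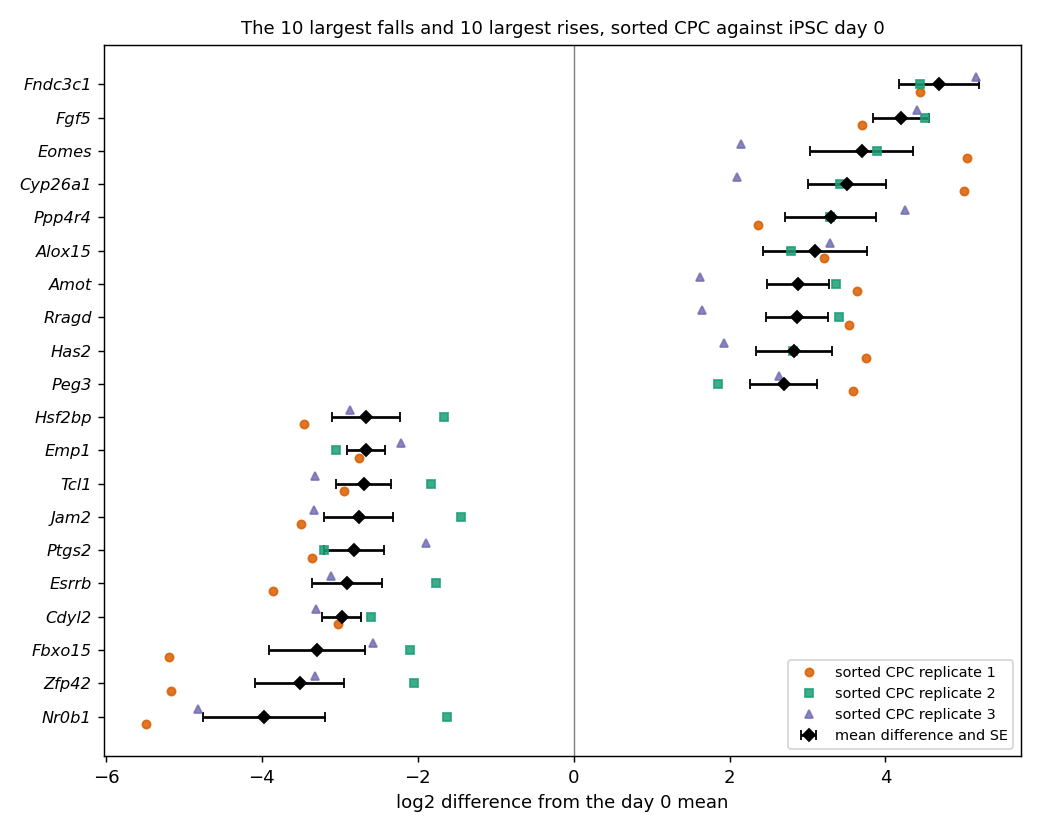
Log2 difference from the day 0 mean (horizontal axis) for the 10 most raised and the 10 most reduced genes; coloured symbols are the 3 libraries labelled sorted CPC, and black diamonds with bars are the mean difference and its SE. Fndc3c1 and Fgf5 were raised evenly, Eomes and Cyp26a1 most in replicate 1, and Nr0b1, Zfp42, Jam2 and Esrrb were least reduced in replicate 2.

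The 250 bases before the transcription start are shown for a pair of risen genes and a pair of fallen genes, so that their upstream sequence can be read beside their change. Fgf5 and Lpar4 were raised in every sorted library, and Zfp42 and Nr0b1 were reduced in every one. Sequences are from RefSeq on GRCm38.p6, read 5′ to 3′ on the gene's strand, and capitals mark matches to the motifs searched. Fgf5 lies at chr5:98253934-98254183 on the + strand, Lpar4 at chrX:106920375-106920624 on +, Zfp42 at chr8:43307010-43307259 on - and Nr0b1 at chrX:86191525-86191774 on +.
Fgf5: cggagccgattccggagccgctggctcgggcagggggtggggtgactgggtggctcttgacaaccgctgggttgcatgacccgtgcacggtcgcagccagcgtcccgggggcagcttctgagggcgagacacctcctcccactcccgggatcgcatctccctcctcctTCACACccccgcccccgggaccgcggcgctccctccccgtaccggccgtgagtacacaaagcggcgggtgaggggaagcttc
Lpar4: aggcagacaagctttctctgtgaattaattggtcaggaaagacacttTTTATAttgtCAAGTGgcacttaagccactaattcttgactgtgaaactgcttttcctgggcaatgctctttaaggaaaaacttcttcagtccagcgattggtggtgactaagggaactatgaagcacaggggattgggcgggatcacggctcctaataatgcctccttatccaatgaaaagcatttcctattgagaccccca
Zfp42: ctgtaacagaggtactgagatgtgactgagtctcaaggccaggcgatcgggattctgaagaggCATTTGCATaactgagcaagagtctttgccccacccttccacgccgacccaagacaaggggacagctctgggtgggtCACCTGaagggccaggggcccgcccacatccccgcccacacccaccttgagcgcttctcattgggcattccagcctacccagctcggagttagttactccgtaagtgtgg
Nr0b1: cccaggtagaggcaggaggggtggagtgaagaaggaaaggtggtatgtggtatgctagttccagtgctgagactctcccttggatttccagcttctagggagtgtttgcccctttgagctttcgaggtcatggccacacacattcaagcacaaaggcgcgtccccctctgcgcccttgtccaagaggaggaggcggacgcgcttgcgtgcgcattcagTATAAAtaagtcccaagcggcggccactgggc
The motifs were a T-box core (TCACAC), the E-box (CANNTG), a GATA motif (AGATAA), the octamer read by POU factors such as OCT4 (ATGCAAAT) and the TATA box (TATAAA), each on both strands. The Fgf5 window held 1 T-box match. The Lpar4 window held 1 E-box and 1 TATA match. The Zfp42 window held 1 octamer match and 2 E-box matches, of which 1 overlaps the octamer, and the Nr0b1 window held 1 TATA match. The octamer was in 3.96% of the 202 windows of fallen genes, 1.57% of the 127 of risen genes and 1.61% of all 15614. The T-box core was in 8.66% of risen, 9.41% of fallen and 10.4% of all windows, and the GATA motif in 5.51%, 3.47% and 8.75%. The E-box was in 55.1%, 62.4% and 61.8%, and the TATA box in 8.66%, 12.9% and 11.2%, in the same order. A match is a description of the letters and not a binding site.

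The naive pluripotency genes were the group with the most calls. Of 22 measured members, 16 fell (72.7%, against 1.32% of all genes) and 0 rose. The median difference was -1.73 against 0.03 over all genes. The median over members was -2.17 in sorted 1, -1.44 in sorted 2 and -1.71 in sorted 3, each relative to the day 0 mean, so that all 3 libraries had left the day 0 level. Their mean signal went from 9.16, 9.47 and 9.29 at day 0 to 6.86, 7.93 and 7.33. Besides those named above, Klf2 fell by 2.31, Klf4 by 2.24, Tfcp2l1 by 2.48 and Nr5a2, a nuclear receptor that can replace OCT4 in reprogramming, by 1.39. The 6 members that did not pass were Tbx3 (-1.18), Dppa5a (-1.17), Bmp4 (-1.47), Manba (-1.23), Gbx2 (-0.52) and Dppa3 (-0.34). Leaving out 1 array moved the count between 13 and 16. The calls of Klf5, Prdm14 and Zfp57 depended on single arrays: Klf5 was lost without iPSC replicate 2 or 3 or sorted 1 or 2, Prdm14 without iPSC replicate 1 or 2 or sorted 1 or 3, and Zfp57 without iPSC replicate 1 or 2 or sorted 3.

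The core factors moved less and less evenly. Pou5f1, which encodes OCT4, measured 10.47, 11.37 and 10.80 in sorted 1, 2 and 3 against 11.24, 11.31 and 11.57 at day 0 (-0.49 ± 0.23 SE, adjusted p = 0.261). Sox2, its partner factor, measured 7.26, 10.73 and 9.36 against 11.14, 11.41 and 11.14 (-2.12 ± 0.61 SE, adjusted p = 0.0661). The Pou5f1 arrays overlapped, while those of Sox2 did not, with sorted 1 far below the other libraries. Of 14 core members 3 fell (21.4%, against 1.32% of all genes) and 0 rose, with a median of -0.85. These were Dppa2, a chromatin factor of early embryos (-2.03, adjusted p = 0.00521), Zfp296 (-1.31, adjusted p = 0.00151) and Nanog (-1.03, adjusted p = 0.0417). Leaving out any 1 of the 6 arrays other than sorted 2 ended the Nanog call, as did the replicate block (adjusted p = 0.0679). Utf1, a chromatin-associated factor of pluripotent cells, measured 7.05 in sorted 1 but 11.15 and 10.89 in sorted 2 and 3, against 11.21 to 11.61 at day 0. With sorted 1 alone, 8 core members fell and 1 rose.

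In the LIF and STAT3 pathway, which supports the naive state, changes went the same way. Of 15 members 6 fell (40.0%, against 1.32% of all genes) and 0 rose, with a median of -0.82. Socs3, the feedback inhibitor of the pathway, measured 7.39, 7.97 and 7.79 in sorted 1, 2 and 3 against 9.79, 8.89 and 9.16 at day 0 (-1.56, adjusted p = 0.00278). Stat3 itself fell by 1.14 (adjusted p = 0.00131), the receptor gene Lifr by 1.46 and Bcl3 by 1.23; Klf4 and Tfcp2l1, counted above, are the other members that fell. No sorted array overlapped day 0 in these 4 genes. Pim1, a kinase gene induced by STAT3, did not pass (-0.83, adjusted p = 0.234), with 7.99, 8.98 and 10.01 against 9.42 to 10.06, so that sorted 1 and 2 lay below day 0 and sorted 3 within it.

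Genes of the formative and primed epiblast changed in the opposite direction. Of 17 members 5 rose (29.4%, against 0.787% of all genes) and 0 fell, with a median of 0.80. The members' mean signal was 8.75, 8.70 and 8.09 in sorted 1, 2 and 3 against 7.42 to 7.57 at day 0. Zic2, a zinc finger factor of the epiblast, measured 10.85, 10.37 and 8.88 against 7.61, 8.20 and 7.52 (4.77-fold, adjusted p = 0.0102). Otx2, a homeobox factor that drives the exit from the naive state, measured 10.16, 10.53 and 9.33 against 8.32, 7.67 and 8.54 (3.56-fold, adjusted p = 0.0101). Sox11 rose 3.88-fold and Zic5 by 1.56. Fgf5 was the only one of the 5 that was lowest in sorted 1. The Otx2 call was lost without iPSC replicate 2 (adjusted p = 0.0505), and without sorted 3 the list had 8 risen members. Dnmt3b, a de novo DNA methyltransferase, measured 10.32, 11.34 and 9.86 against 8.38, 9.14 and 9.81 (adjusted p = 0.056).

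Genes of the primitive streak and nascent mesoderm were highest in sorted 1, lower in sorted 2 and nearest to day 0 in sorted 3. Of 19 members 2 rose (10.5%, against 0.787% of all genes), Eomes and Fgf8, and 0 fell. Fgf8, a growth factor needed for cells to move out of the streak, measured 9.14, 9.30 and 8.48 against 6.98, 6.78 and 7.12 (4.04-fold, adjusted p = 0.0082). The median difference of the list was 1.32, and per library it was 2.18 in sorted 1, 1.13 in sorted 2 and 0.39 in sorted 3. Sorted 1 was the highest of the 3 libraries in 13 of the 19 members (68.4%), against 35% of all genes. Mixl1, a homeobox gene of the streak, measured 12.11, 10.35 and 7.52 against 5.86 to 6.10 at day 0, a mean difference of 4.02 ± 1.16 SE that did not pass (adjusted p = 0.0687). Mesp1, the factor that marks the first cardiogenic mesoderm, measured 8.54 in sorted 1 but 6.06 and 5.99 in sorted 2 and 3, against 5.67 to 6.03. The Mixl1 arrays did not overlap day 0, whereas Mesp1 overlapped day 0 through sorted 3. Lhx1 (10.68, 8.37 and 6.65 against 6.05 to 6.27), Gsc (9.51, 8.96 and 7.60 against 7.02 to 7.19) and Snai1 (9.74, 7.68 and 7.5 against 7.36 to 7.56) were ordered alike. Without sorted 3 the number of risen members was 8, and without cardiac replicate 1, which enters the shared spread, it was 6. With sorted 1 alone it was 14.

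**Figure D3:**
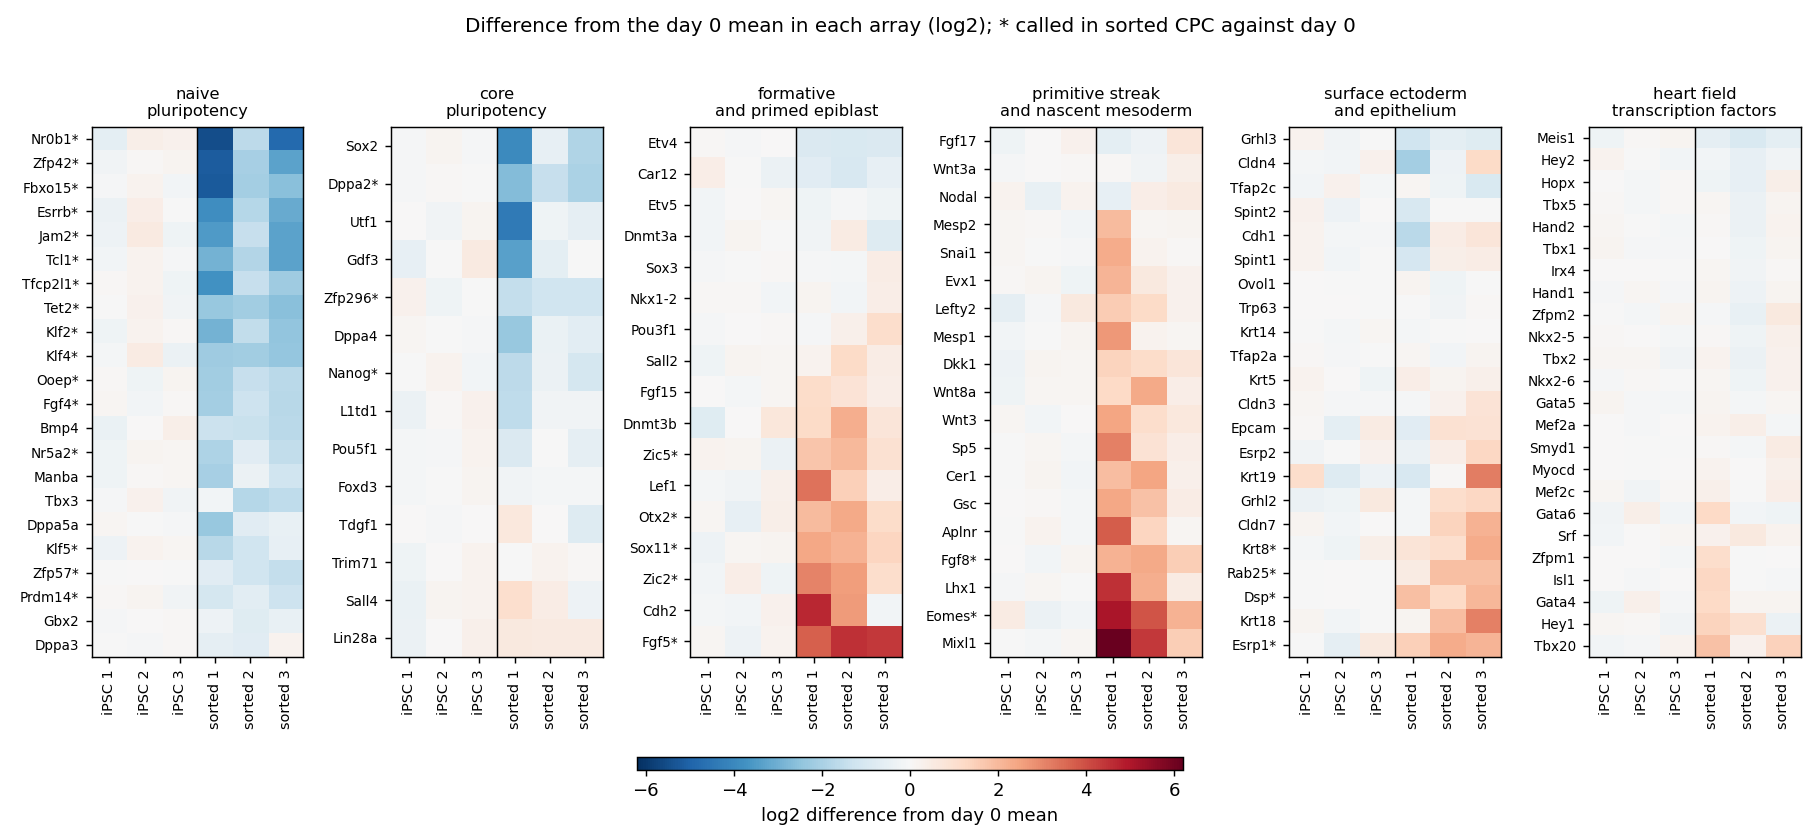
Difference of each array from the day 0 mean (colour, log2) for every measured member of 6 gene lists (rows) in the 3 day 0 and 3 sorted libraries (columns); an asterisk marks a called gene. Naive genes are blue in all sorted libraries, streak genes are deepest red in replicate 1, and epithelial genes are reddest in replicate 3.

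Genes of the later steps towards the heart were not called, with 1 exception. Of 21 lateral plate and cardiogenic mesoderm genes, Has2 alone rose (4.76%, against 0.787% of all genes). Has2 measured 9.90, 8.96 and 8.08 in sorted 1, 2 and 3 against 5.92, 5.81 and 6.72 at day 0 (limma, adjusted p = 0.00546). The median of the list was 0.27, or per library 0.58, -0.15 and 0.12 in sorted 1, 2 and 3. Sorted 1 was the highest library in 17 members (81%). Without sorted 3 or without iPSC replicate 3 the list had 2 risen members. Of 24 heart field transcription factors 0 rose and 0 fell, with a median of 0.06, and 1 rose without sorted 3. Per library the median of these factors was 0.18, -0.19 and 0.18 in sorted 1, 2 and 3. Gata4, a zinc finger factor of cardiac mesoderm and endoderm, measured 9.74, 8.66 and 8.65 against 8.22 to 8.83, and Gata6, its relative, 10.20, 8.81 and 8.69 against 8.77 to 9.32. Isl1, a marker of the second heart field, measured 7.10, 5.79 and 5.76 against 5.74 to 5.86, and Tbx20 7.0, 5.45 and 6.61 against 5.0 to 5.40. In Gata4, Gata6 and Isl1 only sorted 1 exceeded day 0. Sorted 1 lay above the day 0 mean by 1.24 in Gata4 and by 1.23 in Gata6. Nkx2-5 measured 7.63, 7.27 and 7.84 against 7.43 to 7.63, and Tbx5, Mef2c and Hand1 differed by -0.03, 0.23 and 0.02. Of the 8 cardiac progenitor markers chosen to check the label (Mesp1, Tbx20, Hand1, Gata4, Isl1, Nkx2-5, Tbx5 and Mef2c) 0 passed the test. Over all genes 2.11% were called in either direction. With so few markers and sorted libraries that differ, a count of 0 cannot decide whether the label holds.

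Of 25 genes of the sarcomere and cardiac excitation 0 rose and 0 fell, with a median of -0.02. Tpm1, a tropomyosin that many cells express, measured 8.93, 9.71 and 11.69 against 8.25 to 8.45, highest in sorted 3 (adjusted p = 0.0831). It was not confined to sorted libraries, with means of 10.12 in spontaneous cells and 9.57 in cardiac cultures. Without sorted 1 the list had 1 risen member, Tpm1, and 1 fell without sorted 3 or without iPSC replicate 2 or 3. The calcium pump gene Atp2a2 measured 11.20, 10.96 and 10.70 against 10.93 to 11.10.

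**Figure D4:**
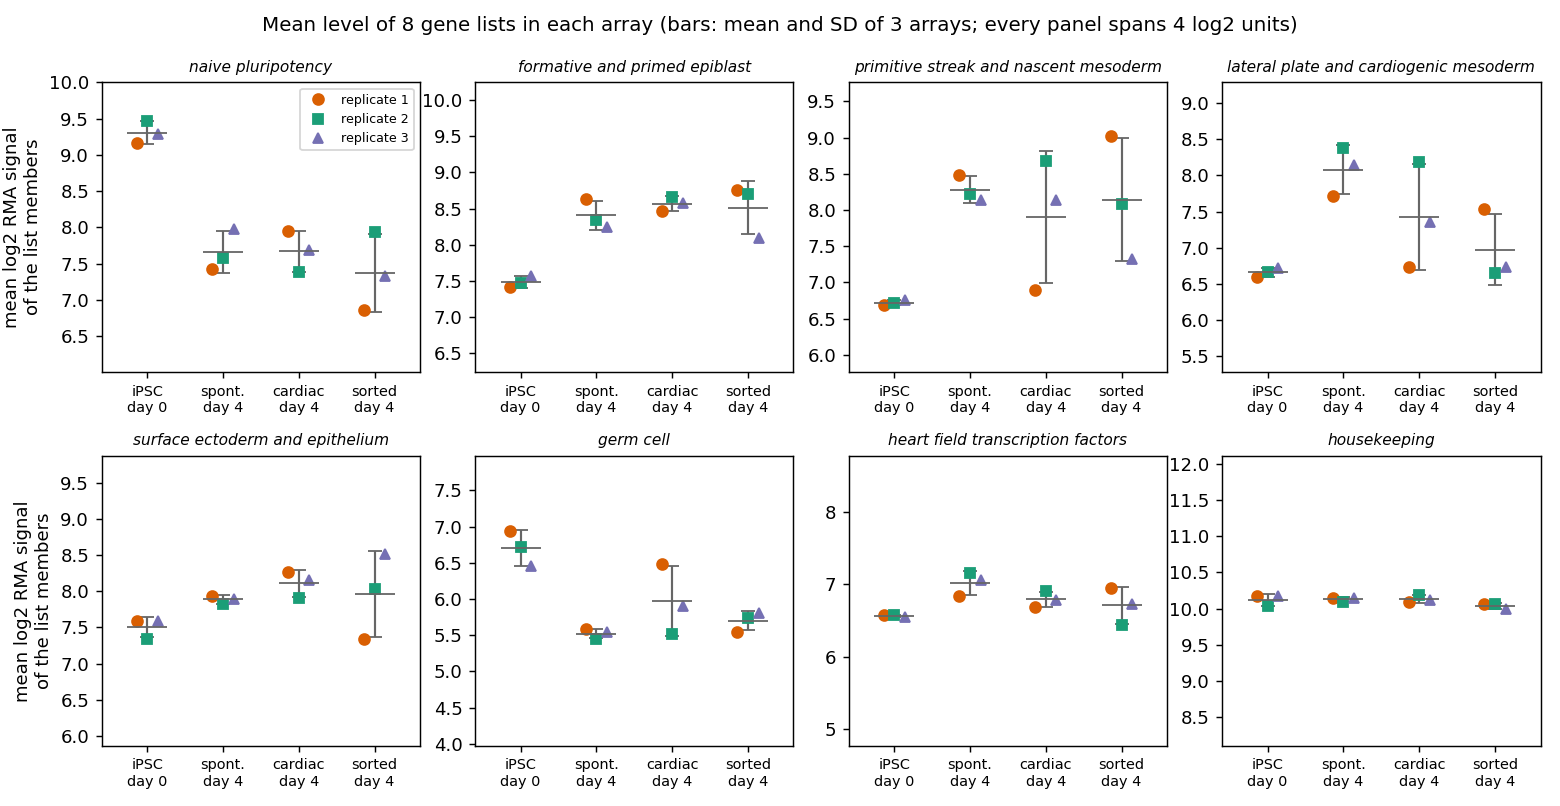
Mean log2 signal of the members of 8 gene lists (vertical axis, 4 log2 units in each panel) in each of the 12 arrays, by group; symbols mark the replicate number, and bars give the mean and SD of 3 arrays. The naive list is lower at day 4 in every library, the streak list spreads from 7.32 to 9.02 among the sorted libraries, and the housekeeping list stays between 9.99 and 10.17 in the 6 arrays compared.

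Lpar4, which encodes a lysophosphatidic acid receptor of the purinergic-like subfamily and is named in the study's title, measured 8.61, 9.12 and 7.83 in sorted 1, 2 and 3 against 5.34, 6.10 and 6.37 at day 0 (5.99-fold, adjusted p = 0.00392). It was raised in the libraries with low Kdr as well as in the one with high Kdr, highest in sorted 2. The rise was not confined to the libraries labelled sorted. Lpar4 measured 8.79, 8.69 and 8.77 in spontaneous cells and 7.31, 9.15 and 8.65 in cardiac cultures. Among 10 genes of lysophosphatidic acid receptors and enzymes, 2 rose and 2 fell, with a median of 0.01. Each was 20.0% of the list, against 0.787% of all genes higher and 1.32% lower. Lpar6, a further receptor of the same subfamily, measured 9.03, 8.43 and 9.71 against 7.73, 7.65 and 7.51 (1.43 ± 0.27 SE, adjusted p = 0.00972). Liph, a lipase that makes lysophosphatidic acid, measured 5.23, 6.81 and 5.48 against 8.63, 8.15 and 8.19 (-2.49 ± 0.43 SE, adjusted p = 0.00546). Plpp1, a phosphatase that degrades the lipid, fell by 1.14 (adjusted p = 0.0104), a call lost without sorted 1 or iPSC replicate 3. The receptors of the other subfamily, Lpar1, Lpar2 and Lpar3, differed by -0.04, 0.32 and 0.11 (lowest adjusted p = 0.32). Of 10 genes of the related lipid sphingosine 1-phosphate 0 rose and 0 fell, with a median of 0.00.

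Among ligands and receptors of the VEGF and PDGF families Flt1 rose, 1 of 18 members (5.56%, against 0.787% of all genes). Flt1, the receptor that binds VEGF tightly and can act as its decoy, measured 8.25, 7.94 and 7.72 against 6.41, 6.58 and 6.22 (2.96-fold, adjusted p = 0.00433), and so did not share the split of Kdr. Nrp1, a coreceptor of VEGF and semaphorins, measured 8.24, 6.13 and 5.46 against 4.90 to 5.89, with sorted 1 farthest above day 0. Without sorted 2, 1 member fell. In the list of 22 endothelial and haemogenic genes Flt1 rose and Pecam1, an adhesion molecule of endothelium that pluripotent cells also carry, fell from 8.85, 8.39 and 7.81 to 5.64, 6.32 and 6.0 (adjusted p = 0.00402). Risen and fallen members were each 4.55% of that list, against 0.787% and 1.32% of all genes. The list had a median of -0.03, and 2 members fell without sorted 2, sorted 3 or iPSC replicate 2. Eng, a coreceptor of TGF-beta ligands, was the nearest of the others, at -0.99 (adjusted p = 0.00679), under the minimum difference.

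Markers of other cell types that such a culture could hold were read in the same way. Epithelial genes had the most rises, with 4 of 22 higher (18.2%, against 0.787% of all genes) and 0 lower. Their median was 0.33, or per library -0.09, 0.32 and 0.88 in sorted 1, 2 and 3. Unsorted cells had like counts against day 0, with 4 risen members in spontaneous cells and 5 in cardiac cultures. Esrp1, a splicing factor of epithelial cells, measured 8.95, 9.80 and 9.59 against 7.46, 6.90 and 8.07 (3.92-fold, adjusted p = 0.0056), and Dsp, a desmosome protein, 9.16, 8.49 and 9.34 against 7.27 to 7.29 (3.3-fold, adjusted p = 0.00184). All sorted libraries shared these rises, including sorted 1. The keratin gene Krt8 (adjusted p = 0.04) and the trafficking gene Rab25 (adjusted p = 0.0168) also rose, but each call was lost without any 1 iPSC array, and that of Krt8 without sorted 3 and that of Rab25 without sorted 2. Cdh1, which encodes E-cadherin, measured 9.14 in sorted 1 and 11.27 and 11.56 in sorted 2 and 3, against 10.67 to 11.01 at day 0. Krt18 measured 7.96, 9.67 and 10.87 against 7.61 to 7.95. Sorted 1 was thus below or near day 0 in both, and sorted 2 and 3 above it. The count of risen epithelial genes was 7 without sorted 1 and 2 without any 1 iPSC array, and 1 member fell without sorted 2.

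Cdh2, which encodes N-cadherin, had the reverse order, with 11.10, 9.06 and 6.24 in sorted 1, 2 and 3 against 6.22 to 6.70 at day 0. In the list of 18 genes of epithelial to mesenchymal transition, Esrp1 alone rose (5.56%, against 0.787% of all genes), and 2 members did so without sorted 3. Fibronectin (Fn1) measured 12.52, 10.58 and 9.51 against 10.47 to 11.47, and vimentin (Vim) 10.94, 10.03 and 10.10 against 10.85 to 11.36. Cxcr4, the chemokine receptor that guides migrating mesoderm and endoderm, measured 10.98, 8.01 and 7.45 against 6.29 to 7.06, and Aplnr, the apelin receptor of early mesoderm, 10.19, 7.76 and 6.53 against 6.27 to 6.61. Of the 21 migration and guidance receptors 0 rose and 0 fell, with a median of 0.27, and sorted 1 was highest in 13 (61.9%). Without sorted 3, 2 rose and 1 fell, and without sorted 1, 1 rose.

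Germ cell genes had the most falls after the naive genes, with like values in all sorted libraries. Of 16 members 8 fell (50.0%, against 1.32% of all genes) and 0 rose. The median was -1.07, or per library -1.19, -1.03 and -1.09. Dazl, an RNA-binding protein of germ cells, measured 4.72, 4.98 and 4.99 against 8.30, 7.36 and 6.54 (5.67-fold lower, adjusted p = 0.00151). Piwil2, which acts in transposon silencing, measured 6.22, 6.29 and 6.4 against 8.55, 8.03 and 7.83 (3.56-fold lower, adjusted p = 0.00149). The day 0 arrays differed among themselves more than the sorted ones in these genes, and no array overlapped. Mael, Taf7l and Tex14 fell by 2.08, 1.84 and 1.35, and Slc25a31, Hormad1 and Stra8 by 1.54, 1.14 and 1.01. The count was 3 without iPSC replicate 1. Calls of single genes were lost without that array for Mael, Taf7l, Slc25a31, Hormad1 and Stra8, without sorted 1 for Mael and Hormad1, without iPSC replicate 2 for Hormad1 and Stra8, and without sorted 2 or 3 for Stra8.

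Fibroblast and feeder genes had 2 of 19 lower (10.5%, against 1.32% of all genes) and 0 higher, with a median of -0.47. Dcn, a proteoglycan of fibroblasts, measured 5.60, 5.84 and 5.66 against 8.39, 6.95 and 8.27 (adjusted p = 0.00143), and Timp1, an inhibitor of matrix proteases, 6.24, 7.07 and 7.51 against 9.46, 8.87 and 9.41 (adjusted p = 0.000703). The mean signal of the list was 7.06, 6.69 and 7.17 at day 0 and 6.39, 6.28 and 6.87 in sorted 1, 2 and 3. Tagln, an actin-binding protein of smooth muscle and activated fibroblasts, measured 7.01, 7.72 and 10.97 against 5.91 to 7.14 (adjusted p = 0.171), with sorted 2 and 3 above day 0 and sorted 3 by far the highest. Of 12 immune genes Laptm5, a lysosomal protein of blood cells, fell, to 5.91, 5.66 and 5.71 from 8.34, 8.07 and 8.58 (adjusted p = 0.000351). Fallen members were 8.33% of the immune list, against 1.32% of all genes. The part of feeder or blood cells in the day 0 signal was not tested.

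Lists of other germ layers had few calls in number, each share resting on 1 or 2 genes. Risen members were 12.5% of the definitive endoderm list and 5.56% of the visceral endoderm list. They were 5.0% of the neuroectoderm and 7.69% of the trophectoderm list, against 0.787% of all genes. Fallen members were 5.0% of the neuroectoderm and 5.88% of the paraxial mesoderm list, against 1.32%. Of 16 definitive endoderm genes 2 rose, Otx2 and Cldn6, a tight junction protein that measured 9.02, 10.91 and 11.24 against 8.17 to 8.80 (adjusted p = 0.0385). The Cldn6 call was lost without sorted 2, sorted 3 or any 1 iPSC array, and with the replicate block (adjusted p = 0.0598). The endoderm count was 4 without sorted 3, 1 without sorted 2, iPSC replicate 1 or iPSC replicate 3, and 0 without iPSC replicate 2. Of 18 visceral endoderm genes Amot rose, with 2 risen members without sorted 1, sorted 3 or cardiac replicate 1. Of 20 neuroectoderm genes Nes, an intermediate filament of progenitors, rose to 7.56, 8.27 and 8.74 from 6.21, 6.14 and 5.75 (4.46-fold, adjusted p = 0.00229), while Neurod1 fell by 1.2 (adjusted p = 0.00471). Their number of fallen genes was 2 without sorted 3 or without iPSC replicate 1 or 3. Of 17 paraxial mesoderm genes Tcf15, a bHLH factor of somites that is also expressed in pluripotent cells, fell by 1.23 (adjusted p = 0.0169). That call was lost without sorted 1 or without iPSC replicate 2 or 3, and 2 other members rose without sorted 3. Of 13 trophectoderm genes Eomes rose. Of 19 HOX and CDX genes 0 rose and 0 fell.

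Among signalling pathways, the WNT list had a median of 0.36. Of its 35 genes 1 rose and 1 fell (2.86% each, against 0.787% and 1.32% of all genes). Both are receptors of the Frizzled family: Fzd2 rose evenly, to 8.01, 8.03 and 8.16 from 7.03, 6.78 and 6.90 (2.24-fold, adjusted p = 0.00709), while Fzd5 fell to 7.43, 8.45 and 7.57 from 8.90, 9.10 and 8.95 (adjusted p = 0.0216). The Fzd5 call was lost without sorted 1 or any 1 iPSC array, and 2 members fell without sorted 2. Among members that did not pass, Lef1, a transcription factor of the pathway, measured 9.76, 7.89 and 6.82 against 6.2 to 6.70, and Sp5, a zinc finger factor, 9.61, 7.40 and 6.89 against 6.39 to 6.64. Sorted 3 was near day 0 in Lef1, and sorted 1 was the highest library in 19 of the 35 members (54.3%). The number of risen WNT genes was 8 without sorted 3, 3 without cardiac replicate 1 and 2 without sorted 1.

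Of 33 genes of the BMP and TGF-beta pathway 0 rose and 0 fell, with a median of 0.15. Smad1, a transducer of BMP signals, measured 10.11, 8.53 and 7.69 against 7.04 to 7.33 (adjusted p = 0.106), and the ligand gene Bmp4 7.37, 7.29 and 7.02 against 8.29 to 9.08 (adjusted p = 0.124). The target genes Id1 and Id3 differed by -0.05 and -0.03. Without sorted 3, 2 members rose, without iPSC replicate 3, 1 rose, and without iPSC replicate 2, 1 fell. Of 14 Nodal pathway genes Pcsk6, a protease that processes Nodal, fell by 1.23 (adjusted p = 0.00499), and 2 rose without sorted 3. Fallen members were 7.14% of the Nodal list, against 1.32% of all genes. Nodal itself measured 8.59, 9.54 and 9.67 against 8.65 to 9.35, and its coreceptor gene Tdgf1 12.79, 12.20 and 11.38 against 12.11 to 12.19.

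In the FGF list of 22 genes, Fgf5 and Fgf8 rose and Fgf4, the ligand of the naive epiblast, fell to 7.73, 8.56 and 8.11 from 9.94, 9.65 and 9.90 (3.24-fold lower, adjusted p = 0.0103). Ligands of the FGF family thus changed in opposite directions, while the feedback genes Dusp6 and Spry2 differed by 0.72 and -0.26 and did not pass. Risen members were 9.09% and fallen members 4.55% of the FGF list, against 0.787% and 1.32% of all genes. In the retinoic acid list of 15 genes Cyp26a1 and Dhrs3, a reductase that lowers retinaldehyde, rose (13.3%, against 0.787% of all genes). The Dhrs3 difference was 1.09 (adjusted p = 0.0231) and was lost without sorted 2 or any 1 iPSC array. In the NOTCH list of 18 genes Nrarp, a feedback inhibitor, rose by 1.02 (adjusted p = 0.0485), a call lost without any 1 of the 6 arrays and with the replicate block (adjusted p = 0.0677), and 2 rose without sorted 3. Risen members were 5.56% of the NOTCH list, against 0.787% of all genes. Of 17 Hippo pathway genes Amot rose (5.88%), and 1 fell without sorted 3. Its targets Ccn1 and Ccn2 split by library, with 8.93, 10.66 and 11.89, and 8.13, 10.18 and 10.79, in sorted 1, 2 and 3, both lowest in sorted 1, against 10.10 to 10.76 and 10.68 to 11.37 at day 0.

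Of 10 genes of DNA methylation and its removal 2 fell (20.0%, against 1.32% of all genes) and 0 rose. Tet2, an oxidase of methylcytosine, measured 6.17, 6.34 and 5.92 against 8.47, 8.79 and 8.29 (5.17-fold lower, adjusted p = 0.000761), and Tet1, its relative, 8.25, 9.14 and 7.73 against 10.05 to 10.15 (3.31-fold lower, adjusted p = 0.00577). Both fell in every sorted library, Tet2 more evenly than Tet1. Without sorted 3 or iPSC replicate 3, 1 member rose. Among 18 imprinted genes Peg3 and Grb10, an adaptor that restrains growth factor signalling, rose. Risen members were 11.1% and fallen members 5.56% of that list, against 0.787% and 1.32% of all genes. Grb10 measured 9.95, 10.08 and 10.09 against 8.08, 8.87 and 8.60 (2.87-fold, adjusted p = 0.000893). Dlk1 fell by 1.66 (adjusted p = 0.0138), a call lost without iPSC replicate 1 or 3.

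Matrix genes had few calls in number, each share resting on 1 gene, but the shares were above those of all genes. Fallen members were 4.55% of the collagens, laminins and related genes, against 1.32% of all genes. The hyaluronan list, with 1 gene risen and 1 fallen, also had shares above those of all genes (0.787% and 1.32%). Nid1, a linker of basement membranes, was the only one of 22 collagens, laminins and related genes that fell, to 6.89, 7.53 and 7.07 from 9.60, 9.30 and 9.24 (4.65-fold lower, adjusted p = 0.000544), and 2 fell without sorted 1, sorted 3 or iPSC replicate 2. Sorted 3 was the highest library in 19 of the 22 (86.4%), against 34.7% of all genes. In the hyaluronan list of 10 genes Has2 rose, while Tnc, a matrix glycoprotein, fell by 1.33 (adjusted p = 0.00277). Of 22 genes of glycolysis and hypoxia Pfkp, a phosphofructokinase, fell from 10.40, 10.39 and 9.54 to 8.10, 8.78 and 7.28 (adjusted p = 0.00499), and 2 fell without sorted 2.

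The lists of 21 mitotic genes, 17 genes of G1 control, 20 genes of cholesterol synthesis and 9 housekeeping genes each had 0 risen and 0 fallen members. Their medians were -0.19, -0.14, -0.11 and -0.05. In the mitotic list 9 of 21 members had all 3 sorted arrays below all day 0 arrays and 0 had them above. Over all genes 11.3% had them below. The mitotic changes were thus small, mostly downward and under the minimum difference. The cyclin gene Ccnb2 differed by -0.42 (adjusted p = 0.0351), under the minimum difference. In the G1 list 1 rose without sorted 1 and 2 without cardiac replicate 1, and 1 housekeeping gene fell without iPSC replicate 2. Cholesterol genes were highest in sorted 3 in 17 of 20 members (85%), for example Fdft1, squalene synthase, with 9.67, 10.41 and 10.99 against 10.49 to 10.77.

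The genes that differed most among the sorted libraries were Mme, Enpp3, Thbs1, Krt19, Sfn, Kdr, Cdh11, Cdh2, Frzb and Mixl1, chosen by their range and given as a description. Cdh11, a mesenchymal cadherin, measured 11.11, 8.66 and 6.85 in sorted 1, 2 and 3, and Frzb, a secreted WNT antagonist, 10.60, 8.32 and 5.56, both lowest in sorted 3, near their day 0 values of 6.09 to 7.18 and 4.79 to 5.69. Sfn, an epithelial 14-3-3 protein, measured 6.88, 8.18 and 11.64, and Thbs1, a matrix glycoprotein, 6.48, 7.38 and 11.31, against 6.90 to 7.97 and 7.74 to 7.99 at day 0. Krt19 measured 6.84, 7.87 and 10.96, and the membrane peptidase gene Mme 5.31, 7.55 and 10.26. Sorted 3 was highest in these 4 genes, at a level that no spontaneous or cardiac array reached; the highest of those arrays had 8.27 for Sfn, 7.78 for Thbs1, 9.04 for Krt19 and 8.80 for Mme. Enpp3, an ectoenzyme, was low in sorted 1 alone, with 5.71, 9.88 and 9.44. Over all genes, 108 were higher by at least 1 in sorted 1 than in both other sorted libraries, 72 in sorted 2 and 173 in sorted 3. By the same measure 195 were lower in sorted 1, 4 in sorted 2 and 141 in sorted 3.

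The libraries labelled sorted were also compared with the unsorted day 4 cells. Against the cardiac cultures limma called 0 genes higher and 0 lower (0% of 19938), where 3135 genes had an unadjusted p under 0.05. The count was 1 without sorted 3, 0 with any other 1 of the 6 arrays left out, and 98 (4 higher and 94 lower) with sorted 1 alone. Against spontaneous cells it called 1 gene (0.00502%), Fos, where 2310 had an unadjusted p under 0.05. The count was 0 without sorted 1 or spontaneous replicate 3, 1 without sorted 2 (a lower gene, with Fos lost), 4 without sorted 3, 18 without spontaneous replicate 1 and 5 with sorted 1 alone. These counts do not show that the groups were alike, given the spread within the sorted and cardiac groups.

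Fos, an AP-1 subunit that dissociation and serum induce within minutes to hours, measured 8.30, 8.84 and 8.41 in sorted 1, 2 and 3, 6.37, 7.03 and 6.80 in spontaneous cells, 6.88, 6.93 and 7.05 in cardiac cultures and 9.34, 9.28 and 8.67 at day 0. All sorted libraries exceeded every other day 4 array and overlapped none of them. The difference was 1.78 ± 0.21 SE from spontaneous cells (adjusted p = 0.028), 1.56 from cardiac cultures (adjusted p = 0.117) and -0.58 from day 0 (adjusted p = 0.152). The call against spontaneous cells was lost without sorted 1 (adjusted p = 0.0572), sorted 2 (adjusted p = 0.0871) or spontaneous replicate 3 (adjusted p = 0.203), all by limma. Of 22 immediate early and stress genes Fosb fell against day 0, to 7.90, 8.59 and 7.10 from 9.11, 9.55 and 8.88 (adjusted p = 0.0183), a call lost without iPSC replicate 1 or 2 or sorted 3. In unsorted cells Fosb was below every sorted array, at 6.45 to 6.48 in spontaneous cells and 6.27 to 6.50 in cardiac cultures, but neither difference passed. Against day 0, 1 member fell in the libraries labelled sorted (4.55%, against 1.32% of all genes), 6 in spontaneous cells and 4 in cardiac cultures. In the sorted comparison the number of fallen members was 2 without sorted 3, and 1 rose without cardiac replicate 1. The list's mean signal was 7.86, 8.36 and 8.85 in sorted 1, 2 and 3, 7.5 to 7.77 in spontaneous cells, 7.81 to 7.88 in cardiac cultures and 8.45 to 8.60 at day 0. The part of handling during the sort in these values was not tested.

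The comparisons of each day 4 group with day 0 share the day 0 arrays, so their values are set side by side only. The median of the naive list was -1.73 in the libraries labelled sorted, -2.07 in spontaneous cells and -1.59 in cardiac cultures. The streak list had 1.32, 1.55 and 1.08 in the same order, the epiblast list 0.80, 0.64 and 0.97, the lateral plate list 0.27, 0.97 and 0.52, and the epithelial list 0.33, 0.06 and 0.30. The mean signal of the lateral plate list was 7.54, 6.65 and 6.73 in sorted 1, 2 and 3, against 7.71 to 8.38 in spontaneous cells and 6.73 to 8.19 in cardiac cultures, so that all 3 sorted libraries lay below every spontaneous array while sorted 1 was inside the cardiac range and sorted 2 and 3 at or under its lower end. The visceral endoderm list had a median of 0.25 in the libraries labelled sorted, 0.27 in spontaneous cells and 1.57 in cardiac cultures. For Fgf5 the means were 8.75 ± 0.79 (SD, n = 3) in spontaneous cells and 9.32 ± 0.48 in cardiac cultures.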

How the data were processed

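Each of 12 mouse samples gave total RNA for 1 Affymetrix array. The deposited log2 signals were computed by the authors with RMA, for which the submitters' processing notes name Expression Console 1.3.1. No source states the log base: log2 is what RMA gives, and it fits the values' span of 1.87 to 13.87. RMA makes the distributions of the arrays alike, and their medians lay between 6.09 and 6.26. No source used here gives a genome build for the probes, a slide or a scan. Precision is set by how many arrays there are.

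Of 35557 probe sets, 21789 had 1 gene symbol in the platform annotation, 1621 had several and 12147 were not listed. For 999 genes with several probe sets the one with the highest mean was kept, which left 19938 genes. Groups followed the labels. limma 3.58.1 under R 4.3.3 fitted 4 group means to all 12 arrays, letting the prior variance follow mean signal (residual degrees of freedom 8, prior 5.01). Its two-sided p-values were Benjamini-Hochberg adjusted across the 19938 genes. Calls needed an adjusted p under 0.05 and an absolute log2 difference of at least 1. The method was tested on simulated data.

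The gene lists (42, of which 667 of 701 distinct members were measured) and the members were chosen with earlier results of these data known. Lists are described by counts and medians, with no set test. Named genes were Lpar4, Kdr and Pdgfra, the 10 largest rises and falls without overlap, up to 4 called and 2 uncalled members of each list, and the 10 widest ranges among sorted arrays, leaving out predicted and olfactory genes. Further members were named after their values were seen. Promoters came from RefSeq (GRCm38.p6). Alternatives were other spread models, array weights, filters, scalings and thresholds, the replicate number as a block, and arrays left out; leaving out single arrays of the other day 4 groups, cardiac replicate 1 apart, was chosen after seeing the data.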

Additional observations from a re-analysis of the deposited data

Results flagged for a closer look

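Fos was singled out because its effect against day 0 differed between sorted and spontaneous cells, by the limma contrast of both groups. The difference was 1.78 ± 0.21 SE (log2, adjusted p = 0.028), with all 3 libraries labelled sorted above all 3 spontaneous arrays. No other gene passed in that contrast, and 0 genes, Fos included, passed in the contrast of sorted with cardiac libraries.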

How the results depend on the processing

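For the libraries labelled sorted against day 0, the counts of 157 risen and 263 fallen genes stayed within 1.5 times under array weights, averaged probe sets, 3 scalings, other spread models and without dim genes (140 to 218 higher, 242 to 353 lower). They were 360 and 659 with no minimum fold change and 3 and 5 when tested against a log2 difference of 1 (treat). With 1 of the 6 arrays left out they ran from 107 to 270 and from 187 to 338, and with only sorted 1 kept they were 277 and 547. Same-numbered sorted and day 0 arrays had nearly uncorrelated deviations from their group means (-0.038, 0.034 and -0.002). With 3 arrays a group and sorted libraries that differ widely, this cannot decide whether the replicate numbers pair the samples. A replicate block gave 158 risen and 258 fallen genes. Against cardiac cultures the count of 0 became 1 without sorted 3 (leave-one-out range 0 to 1) and 98 with only sorted 1 kept. Against spontaneous cells the count of 1 became 0 with array weights, with only the 6 arrays compared and with treat, ran from 0 to 18 with 1 array left out, and was 5 with only sorted 1 kept. Of 66 called genes that the rule for names chose, 63 kept their call with the replicate block, 60 with only the 6 arrays compared, 5 with treat and 55 with only sorted 1 kept; 2 could not be fitted with dim genes left out. No direction of a called value reversed. With 3 arrays a group and no measured background, small or dim changes are not resolved.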
